A study of Mus musculus with 8 samples.

Results

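Tumour-associated macrophages were followed here through 9 genes: the growth factor gene Csf1 and its receptor gene Csf1r, the lysosomal marker Cd68, the scavenger receptor genes Mrc1 and Cd163, the 3 complement chains C1qa, C1qb and C1qc, and the lipid-sensing receptor gene Trem2. They were chosen by symbol and all 9 were found among the 26667 genes of the count table. The counts came from undifferentiated pleomorphic sarcomas (UPS) of the mouse hind limb, 1 RNA-seq library per tumour, made from formalin-fixed, paraffin-embedded sections after depletion of ribosomal RNA. KP tumours (KP 5 to KP 8, n = 4) carried Trp53 fl/fl, KPH2 tumours (KPH2 1 to KPH2 4, n = 4) carried Epas1 fl/fl in addition, and the strain of both was mixed 129/C57BL/6. In both genotypes adenoviral Cre was injected into the hind limb muscle of adult males and females. The end point was either elapsed time or tumour size. Epas1, which encodes HIF-2α, was deleted by Cre in the cells that the virus reached and in their progeny, and the host's macrophages kept their floxed alleles unless they too were infected.

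KPH2 1 was taken to be the knockout tumour that the study left out as a technical outlier, because it is absent from the deposited normalized table of 7 tumours. The main comparison therefore set KPH2 2 to KPH2 4 against KP 5 to KP 8, and KPH2 1 was shown apart. Total counts ran from 6463221 to 13155510 per tumour, and each of the 9 genes had at least 100 counts in every tumour. Epas1 was counted at 59.2 to 86.9 CPM (counts scaled to a common library size) in KP tumours, at 37.7 to 53.4 CPM in KPH2 2 to KPH2 4 and at 32.6 CPM in KPH2 1 (log2 fold change −0.81, standard error, SE, 0.19, edgeR adjusted p = 0.0742 over the 7 tumours and 0.117 over all 8). It passed without KP 5 (edgeR adjusted p = 0.0442) and with DESeq2 (adjusted p = 0.0118).

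Macrophages in solid tumours arise from blood monocytes and from cells already resident in the tissue, and both depend on CSF1 signalling through the receptor CSF1R. MRC1 (CD206) and CD163 are endocytic receptors typical of resident and alternatively activated macrophages, whereas C1q, which opens the classical complement pathway, is made in most tissues largely by macrophages and some dendritic cells. TREM2 signals through the adaptor TYROBP in macrophages that take up lipid. In whole-tumour RNA, fewer macrophages and less RNA per macrophage cannot be told apart.

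The windows upstream of 4 of the genes are shown because they are those with the largest differences between groups among the scavenger receptors (Mrc1 and Cd163) and those of 2 complement chains with smaller ones (C1qb and C1qc). Each is the 250 bases before a RefSeq transcript start in GRCm38.p6, written 5′ to 3′ on the strand of the gene. The capitals mark GAGGAA or its reverse complement, a purine-rich sequence of the kind bound by the macrophage factor PU.1.
Mrc1, chr2:14229164-14229413, plus strand: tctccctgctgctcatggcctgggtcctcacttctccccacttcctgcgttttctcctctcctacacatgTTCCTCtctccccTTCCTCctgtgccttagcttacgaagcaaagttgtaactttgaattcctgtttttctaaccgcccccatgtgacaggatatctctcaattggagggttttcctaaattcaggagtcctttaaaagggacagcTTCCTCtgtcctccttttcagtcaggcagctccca
Cd163, chr6:124304401-124304650, plus strand: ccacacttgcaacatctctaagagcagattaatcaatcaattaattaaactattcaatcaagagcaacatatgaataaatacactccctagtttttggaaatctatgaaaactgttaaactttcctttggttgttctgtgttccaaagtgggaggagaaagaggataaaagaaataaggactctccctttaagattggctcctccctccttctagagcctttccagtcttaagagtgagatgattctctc
C1qb, chr4:136886201-136886450, minus strand: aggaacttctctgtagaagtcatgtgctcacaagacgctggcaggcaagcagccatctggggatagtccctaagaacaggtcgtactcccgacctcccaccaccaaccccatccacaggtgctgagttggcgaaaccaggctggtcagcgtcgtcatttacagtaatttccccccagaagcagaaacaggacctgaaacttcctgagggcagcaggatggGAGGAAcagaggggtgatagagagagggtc
C1qc, chr4:136892915-136893164, minus strand: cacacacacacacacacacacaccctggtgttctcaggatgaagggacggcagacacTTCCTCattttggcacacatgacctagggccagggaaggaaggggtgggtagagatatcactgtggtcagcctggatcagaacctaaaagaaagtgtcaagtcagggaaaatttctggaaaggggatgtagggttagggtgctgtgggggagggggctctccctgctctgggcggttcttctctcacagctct

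Windows were matched for 7 of the 9 genes, namely these 4 and Csf1, Cd68 and Trem2. GAGGAA was searched on both strands and stood in 5 of the 7 windows. Mrc1 held 3 matches, Cd68, C1qb, C1qc and Trem2 held 1 each, and Csf1 and Cd163 held none, where 23.3% of the 32851 windows of this length held at least 1. In Mrc1 the matches began 180, 167 and 35 bases before the start, in C1qb 30 and in C1qc 193 bases before it. The cores of the hypoxia response element bound by HIF proteins, ACGTG and GCGTG, were searched in the same way. They stood in 1 of the 7 windows, as GCGTG in that of Trem2, against 38.6% of all windows holding at least 1 of the pair. No match overlapped another. A match describes these letters only and is no evidence of binding.

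All 9 genes had lower fitted levels in KPH2 2 to KPH2 4 than in KP tumours, by log2 fold changes of −0.20 to −1.53 with a median of −0.53. The median of all 14867 tested genes was −0.02, and 52.0% of them had a log2 fold change below 0. By edgeR's quasi-likelihood F test, with p adjusted by Benjamini-Hochberg across every tested gene, 0 of the 9 passed 0.05, where 1.96% of all genes passed and 0.720% passed as lower. At an unadjusted p of 0.05, edgeR counted 4 of the 9 as lower (Mrc1, Cd163, Csf1 and Csf1r), against 9.26% of all genes. DESeq2 called 1 gene, Mrc1, where it called 3.33% of all genes as lower. Limma on the authors' rlog values called 0 of the 9, where it called 335 of all 14867 genes in either direction. With KPH2 1 included, all 9 were again lower, with a median of −0.62, where 49.1% of all genes were below 0. EdgeR then called 0 of the 9, where it called 0.00675% of all genes, a single gene that was higher, and 6 of the 9 were lower at an unadjusted p of 0.05, against 8.02% of all genes. Without KPH2 2, the tumour with the lowest level among the 7 for 7 of the 9 genes, the median log2 fold change of the 9 genes was −0.32. In that fit 1 of them had an unadjusted p under 0.05 (edgeR), against 13.6% of all genes in either direction.

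**Figure D1:**
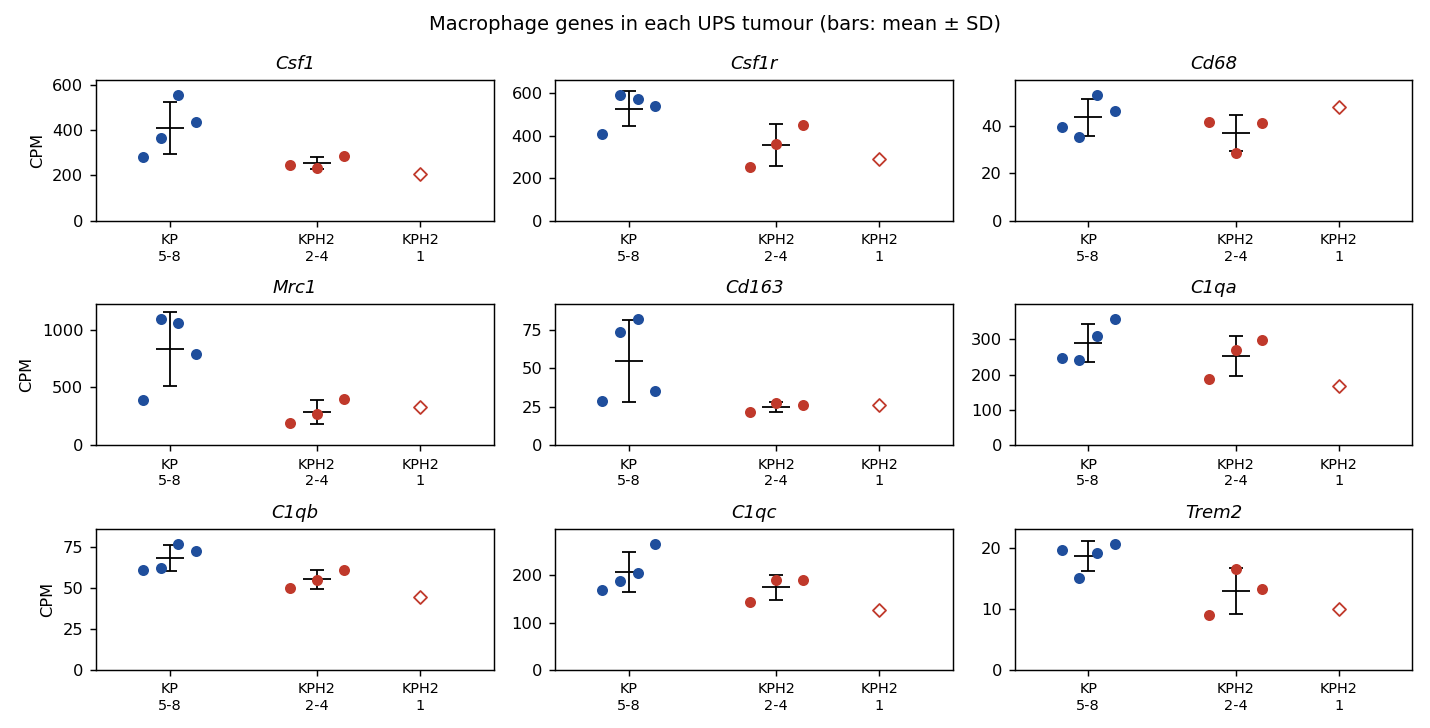
Level of each of the 9 macrophage genes in CPM (vertical axes, each from 0) in KP 5 to KP 8 (blue), KPH2 2 to KPH2 4 (red) and KPH2 1 (open diamond), with the mean and SD of each group as black bars. Mrc1 and Cd163 spread widely among KP tumours, and only Cd163 has every KPH2 tumour below every KP tumour.

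**Figure D2:**
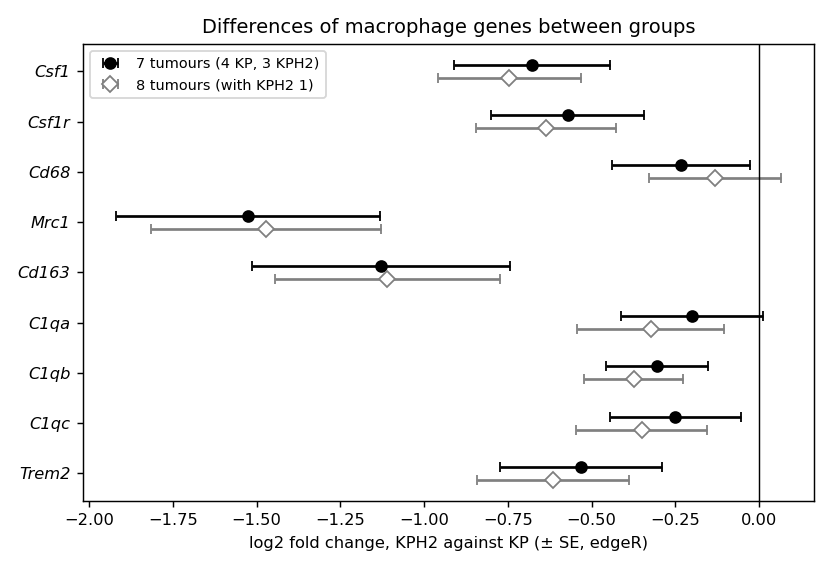
Log2 fold change of the 9 macrophage genes in KPH2 against KP tumours with its standard error from edgeR (horizontal axis), over 7 tumours (filled circles) and over all 8 (open diamonds). Every point lies below 0, between −0.20 and −1.53 over 7 tumours, and none passed an adjusted p of 0.05.

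Csf1, the ligand, and Csf1r, the receptor tyrosine kinase on which most macrophages depend, were both lower in KPH2 tumours by a moderate amount that did not pass the adjustment. Csf1r (Entrez Gene 12978, GRCm38 chromosome 18, 61105572 to 61131139) was measured at 408, 593, 572 and 540.2 CPM in KP 5, 6, 7 and 8, at 254, 360.4 and 453 CPM in KPH2 2, 3 and 4, and at 291 CPM in KPH2 1. KPH2 4 lay above KP 5, so the groups overlapped, and KPH2 1 lay below every KP tumour. KP tumours averaged 528 ± 83.3 CPM (SD, n = 4) and KPH2 2 to KPH2 4 356 ± 99.5 CPM (SD, n = 3), a log2 fold change of −0.57 (SE 0.23, edgeR adjusted p = 0.237). The value was −0.64 with KPH2 1 (SE 0.21, edgeR adjusted p = 0.230) and −0.38 without KPH2 2.

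Csf1 (Entrez Gene 12977, chromosome 3, 107741048 to 107760469) is also made by tumour and stromal cells, so its level is not a measure of macrophages alone. It stood at 280.8, 364, 556 and 437 CPM in KP 5 to KP 8, at 248, 234 and 286 CPM in KPH2 2 to KPH2 4, and at 208 CPM in KPH2 1. Only KP 5, the lowest of its group, lay within the KPH2 range, and KPH2 1 was the lowest of all 8. The log2 fold change was −0.68 (SE 0.23, edgeR adjusted p = 0.182) and −0.75 with KPH2 1 (SE 0.21, edgeR adjusted p = 0.190). Per count of Csf1r, a tumour held 0.613 to 0.972 counts of Csf1 in KP and 0.632 to 0.977 in KPH2 2 to KPH2 4, ranges that lay nearly on each other. Il34, which encodes the other ligand of CSF1R, was counted at 16.1, 39.2, 52.6 and 53.0 CPM in KP 5 to KP 8, at 47.0, 72.9 and 71.5 CPM in KPH2 2 to KPH2 4 and at 11.7 CPM in KPH2 1 (log2 fold change 0.67 over 7 tumours, edgeR adjusted p = 0.422, 0.41 without KP 5, and 0.34 with all 8 tumours, edgeR adjusted p = 0.823).

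Mrc1, the mannose receptor gene, showed the largest log2 difference of the 9. Mrc1 (Entrez Gene 17533, chromosome 2, 14229414 to 14332023) was measured at 390.3, 1089.5, 1056 and 793 CPM in KP 5 to KP 8, at 196, 272 and 399.8 CPM in KPH2 2 to KPH2 4, and at 332 CPM in KPH2 1. KP 6, 7 and 8 lay far above all KPH2 tumours, whereas KP 5 lay just below KPH2 4. KP tumours averaged 832 ± 323 CPM (SD, n = 4) and KPH2 2 to KPH2 4 289 ± 103 CPM (SD, n = 3), 2.88-fold lower by the fit (log2 fold change −1.53, SE 0.39, edgeR adjusted p = 0.0951), and 2.77-fold lower with KPH2 1 (edgeR adjusted p = 0.144). Without KP 5 edgeR gave −1.75 and an adjusted p of 0.0320, and DESeq2 over the 7 tumours gave an adjusted p of 0.00228. Over all 16 alternatives the log2 fold change of Mrc1 ran from −1.83 to −0.55 and the adjusted p from 0.00228 to 0.915, under 0.05 in 2 of them.

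Cd163, the haemoglobin-haptoglobin receptor gene, was the 1 gene of the 9 whose groups did not overlap, where 8.15% of all tested genes were lower in KPH2 tumours without overlap. Cd163 (Entrez Gene 93671, chromosome 6, 124304636 to 124330529) stood at 28.4, 73.6, 81.8 and 35.1 CPM in KP 5 to KP 8, at 21.4, 27.3 and 26.1 CPM in KPH2 2 to KPH2 4, and at 26.2 CPM in KPH2 1. The 4 KPH2 tumours lay close together and below every KP tumour, while KP 6 and KP 7 stood well above KP 5 and KP 8. With KPH2 1 counted in its group the absence of overlap held, against 4.39% of all genes. The log2 fold change was −1.13 (SE 0.39, edgeR adjusted p = 0.183), and −1.11 with KPH2 1 (SE 0.33, edgeR adjusted p = 0.210).

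The complement chains differed less. C1qa, C1qb and C1qc encode the chains that assemble into C1q, and lie side by side on chromosome 4 within 18719 bases (136880126 to 136898844) with 0 other RefSeq genes between them. C1qa (Entrez Gene 12259, 136895916 to 136898844) stood at 248, 242, 309.8 and 357 CPM in KP 5 to KP 8, at 189, 269 and 298 CPM in KPH2 2 to KPH2 4, and at 169 CPM in KPH2 1. KPH2 3 and KPH2 4 lay inside the KP range, and KPH2 1 and KPH2 2 below it. C1qc (Entrez Gene 12262, 136889801 to 136892936) gave a similar picture, with 168, 188, 205 and 267 CPM in KP 5 to KP 8, 143, 189.6 and 190.4 CPM in KPH2 2 to KPH2 4, and 127 CPM in KPH2 1. C1qb (Entrez Gene 12260, 136880126 to 136886200) stood at 61.1, 62.2, 76.9 and 72.4 CPM in KP and at 49.7, 54.8 and 61.2 CPM in KPH2 2 to KPH2 4, with KPH2 1 at 44.7 CPM. For C1qb the groups overlapped only through KP 5 and KPH2 4, which were nearly equal.

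The log2 fold changes were −0.20 for C1qa (SE 0.21, edgeR adjusted p = 0.676), −0.31 for C1qb (SE 0.15, edgeR adjusted p = 0.342) and −0.25 for C1qc (SE 0.20, edgeR adjusted p = 0.558). KPH2 1 had the lowest level of all 8 tumours for each chain, and with it the log2 fold changes were −0.32, −0.37 and −0.35, again without a call (edgeR adjusted p = 0.524, 0.293 and 0.439). Single tumours moved the small values of 2 chains, C1qa to −0.03 without KPH2 2, −0.09 without KP 8 and −0.34 without KPH2 4, and C1qc to −0.12 without KPH2 2 and −0.11 without KP 8. The ratios of the chains to each other differed between the 8 tumours, though by less than the ratio of Mrc1 to C1qa given below. Per length of transcript, C1qb ran at 0.194 to 0.253 of C1qa and C1qc at 0.552 to 0.671 of C1qa, with KPH2 1 at 0.253 and 0.650.

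The ratio of Mrc1 to C1qa was less even. A tumour held 1.57, 4.50, 3.41 and 2.22 counts of Mrc1 per count of C1qa in KP 5 to KP 8, and 1.04, 1.01 and 1.34 in KPH2 2 to KPH2 4. All 4 KP tumours were above these 3 KPH2 tumours, but KPH2 1, at 1.97, lay inside the KP range. For Cd163 the same ratio was 0.115, 0.304, 0.264 and 0.0983 in KP 5 to KP 8, 0.113, 0.102 and 0.0878 in KPH2 2 to KPH2 4 and 0.155 in KPH2 1. Here the groups overlapped, with KP 8 below KPH2 2 and KPH2 3. For Csf1r the same ratio was 1.51 to 2.45 in KP, 1.34 to 1.52 in KPH2 2 to KPH2 4 and 1.73 in KPH2 1. These ratios were formed after the levels had been seen and are given without a test.

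**Figure D3:**
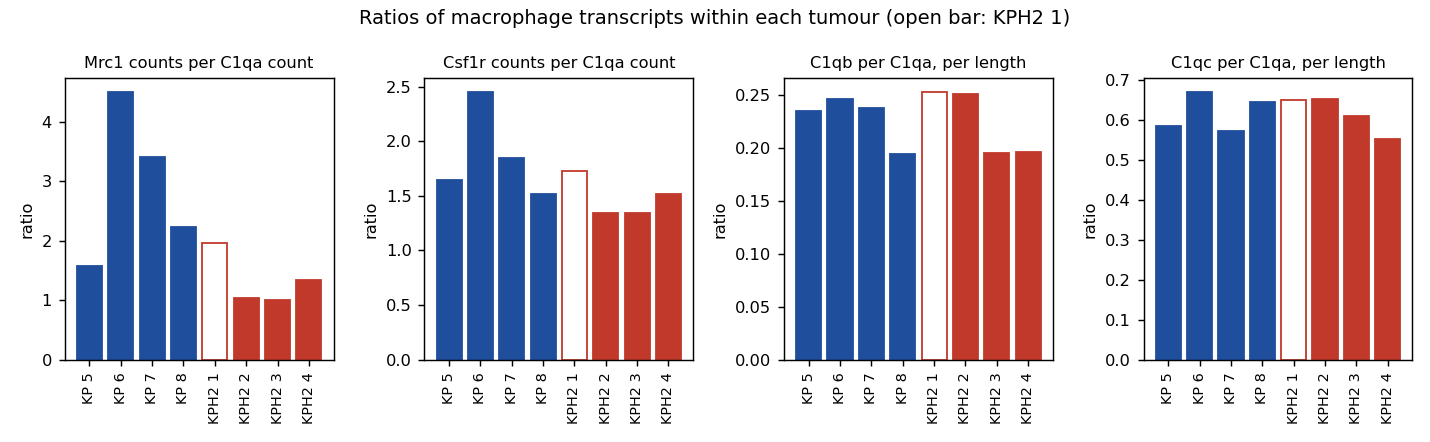
Ratios of transcripts within each of the 8 tumours (vertical axes from 0), with KP tumours in blue, KPH2 2 to KPH2 4 in red and KPH2 1 as an open bar. Mrc1 per C1qa ranges from 1.01 to 4.50, whereas C1qb per C1qa stays between 0.194 and 0.253 and C1qc per C1qa between 0.552 and 0.671.

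Cd68 and Trem2 had fewer counts than most of the others. Cd68 (Entrez Gene 12514, chromosome 11, 69664213 to 69666170), a protein of late endosomes and lysosomes, stood at 39.6, 35.4, 53.1 and 46.3 CPM in KP 5 to KP 8, at 41.7, 28.4 and 41.2 CPM in KPH2 2 to KPH2 4, and at 47.8 CPM in KPH2 1. The groups overlapped broadly, and KPH2 1 lay above the other KPH2 tumours, unlike its place for C1q and Csf1. The log2 fold change was −0.23 (SE 0.21, edgeR adjusted p = 0.609), and −0.13 with KPH2 1 (edgeR adjusted p = 0.802). It was −0.13 without KP 7 and −0.07 without KPH2 3.

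Trem2 (Entrez Gene 83433, chromosome 17, 48346401 to 48352276) was measured at 19.7, 15.1, 19.3 and 20.8 CPM in KP 5 to KP 8, at 9.001, 16.6 and 13.3 CPM in KPH2 2 to KPH2 4, and at 9.99 CPM in KPH2 1. Only KPH2 3 reached the KP range. The log2 fold change was −0.53 (SE 0.24, edgeR adjusted p = 0.298), and −0.62 with KPH2 1 (SE 0.23, edgeR adjusted p = 0.274). Without KPH2 2 it was −0.32.

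Levels could be compared between genes only per length of transcript, taken here as the longest GENCODE M21 transcript matched to a curated RefSeq transcript. On this scale, in CPM per kilobase, C1qa was the highest in KP tumours at 278 ± 52.4, followed by C1qc at 172 ± 35.4, Mrc1 at 155 ± 60.1, Csf1r at 137 ± 21.5, Csf1 at 98.1 ± 28.0, C1qb at 62.7 ± 7.12, Cd68 at 35.4 ± 6.32, Trem2 at 17.2 ± 2.26 and Cd163 at 12.3 ± 6.05 (SD, n = 4 for each). In KP tumours the ranges of neighbours in this order overlapped from C1qc down to C1qb, and again for Trem2 and Cd163, whereas C1qa lay above all others in every tumour and Cd68 overlapped neither neighbour. In KPH2 2 to KPH2 4, Mrc1 stood lower in the order, at 53.8 ± 19.1 (SD, n = 3), below Csf1r at 91.9 ± 25.7 and Csf1 at 61.3 ± 6.47 and close to C1qb at 50.8 ± 5.30.

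**Figure D4:**
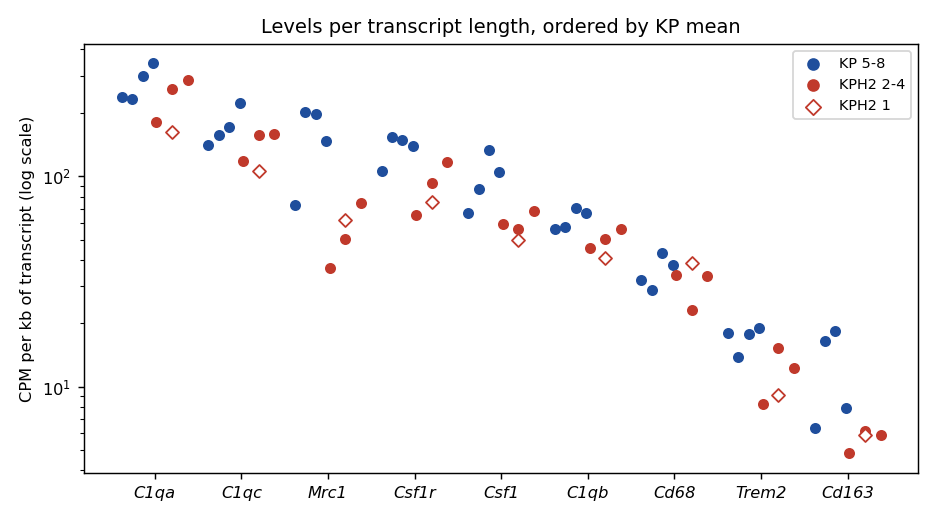
Levels of the 9 genes in CPM per kilobase of transcript on a log axis, ordered by the KP mean, with KP tumours in blue, KPH2 2 to KPH2 4 in red and KPH2 1 as an open diamond. C1qa is highest, at a KP mean of 278, and Cd163 lowest, at 12.3; the points of Mrc1 and Cd163 spread most within KP.

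The genes whose levels followed Csf1r most closely over the 7 tumours were Arrb2, Arhgap4, Gm19719, Slco2b1 and Hfe, with Pearson's r of log2 CPM of 0.991, 0.988, 0.985, 0.980 and 0.973. Of the 9 macrophage genes, Mrc1 came nearest, at rank 20 of 14866 genes (r = 0.956), and Cd68 was far away, at rank 4368 (r = 0.322). For the mean of the C1q chains the nearest genes were Irf5, which encodes an interferon regulatory factor of myeloid cells, AI463170, Cd34, Alpk1 and 4930402H24Rik (r = 0.986, 0.959, 0.956, 0.951 and 0.943). Csf1r stood at rank 185 of 14864 genes (r = 0.804), Trem2 at rank 225 (r = 0.790), Mrc1 at rank 490 (r = 0.719) and Cd68 at rank 2605 (r = 0.427). These correlations describe 7 libraries, in which any 2 genes are read from the same tumours with the same depth and tissue make-up, and include the difference between the groups. With each group's mean subtracted, Irf5 stayed first for C1q (r = 0.988), and 1 of the 5 genes stayed among the nearest 5 for either target.

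Other genes of macrophages and their pathways, taken from 8 lists, held 85 genes in the count table, of which 76 were tested. Of these, 65 were lower and 11 higher in KPH2 2 to KPH2 4, with a median log2 fold change of −0.63, and edgeR called 4 as lower and 1 as higher, against 0.720% and 1.24% of all genes. The 4 lower genes were C1s, C1ra, C4b and Ptgs2, and the higher gene was Itgax. At an unadjusted p under 0.05 edgeR counted 26 of the 76, against 17.8% of all genes in either direction. That count was 15 of 76 without KP 6 (19.7%, against 15.0% of all genes), 16 of 77 without KPH2 2 (20.8%, against 13.6%), 17 of 78 without KPH2 3 (21.8%, against 14.9%) and 38 of 75 without KP 5 (50.7%, against 19.8%). With KPH2 1 included 0 of 75 were called (edgeR), with 33 at an unadjusted p under 0.05, against 14.7% of all genes. The 5 calls became 10 without KP 5, 0 without KP 6, KP 7 or KPH2 2, 3 without KP 8, and 1 without KPH2 3 or KPH2 4.

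Among 16 general macrophage genes, 14 were lower and 2 higher, with a median of −0.41 and no call by edgeR, although 5 had an unadjusted p under 0.05, a count of 1 to 6 when single tumours were left out (1 without KP 6 or KPH2 2, 2 without KP 8, 3 without KPH2 3). The most abundant was Lyz2, which encodes lysozyme, at 813 to 1688 CPM in KP, 709.8 to 1051 CPM in KPH2 2 to KPH2 4 and 1011.5 CPM in KPH2 1 (log2 fold change −0.63, edgeR adjusted p = 0.274). Ctss, a lysosomal protease gene, differed by −0.31 (edgeR adjusted p = 0.525), and by −0.20 without KP 6 or KPH2 2 and −0.47 without KPH2 4. Among 11 tested genes of resident and scavenger macrophages all were lower, with a median of −0.75 and no call by edgeR, 5 of them at an unadjusted p under 0.05. Without KP 5 edgeR called 2, and the unadjusted count was 3 without KP 6 or KP 7, 2 without KPH2 2 and 1 without KPH2 3. Of these F13a1, the coagulation factor XIII A chain gene, stood at 219.8 to 573 CPM in KP and at 92.9, 126 and 198 CPM in KPH2 2 to KPH2 4, with KPH2 1 at 235 CPM (log2 fold change −1.70, SE 0.39, edgeR adjusted p = 0.0706, or 0.160 with all 8 tumours). F13a1 passed without KP 5 (edgeR adjusted p = 0.0275) and with DESeq2 (adjusted p = 0.000348). Stab1, a scavenger receptor gene, differed by −0.75 (edgeR adjusted p = 0.185).

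Activation genes gave no common call. Of 6 tested genes of alternative activation 5 were lower (median −0.41), and edgeR called 0, with 2 at an unadjusted p under 0.05 (1 with all 8 tumours or without any single tumour other than KP 5). The median was −0.13 without KP 7, −0.15 without KP 8, −0.18 without KPH2 2 and −0.11 with all 8 tumours. The interleukin-4 receptor gene Il4ra stood at 187, 336, 383 and 319 CPM in KP 5 to KP 8 and at 141, 148 and 137 CPM in KPH2 2 to KPH2 4, with KPH2 1 at 156 CPM. Every KPH2 tumour was below every KP tumour, where 8.15% of all tested genes over 7 tumours and 4.39% over 8 were lower without overlap. The log2 fold change of Il4ra, −1.11, did not pass the adjustment (SE 0.24, edgeR adjusted p = 0.0575, or 0.106 with all 8 tumours). It passed without KP 5 (0.0160) and without the filter on low counts (0.0424) in edgeR, and with DESeq2 (adjusted p = 0.00134). Tgm2, a transglutaminase gene, differed by −0.08 (edgeR adjusted p = 0.889). All 7 tested genes of inflammatory activation were lower (median −0.81), with 1 called. Ptgs2, which encodes cyclooxygenase 2 and is made by many cell types, fell from 99.7 ± 70.2 CPM (SD, n = 4) to 11.5 ± 4.41 CPM (SD, n = 3), a log2 fold change of −3.11 (SE 0.61, edgeR adjusted p = 0.0491). The call was lost without the filter on low counts (edgeR adjusted p = 0.0860), with a minimum mean count of 50 (0.0528) and without any single tumour other than KP 5 (0.0599 to 0.144). In KPH2 1 Ptgs2 stood at 83.8 CPM, inside the KP range of 44.7 to 195, and with it the log2 fold change was −1.74 (edgeR adjusted p = 0.366).

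The list of TREM2 signalling and lipid handling had no steady direction. Its median was 0.13, with 7 of 12 genes higher, but −0.09 without KPH2 2 or KPH2 3, 0.02 without KP 5, 0.08 without KP 7, 0.21 without KP 6, 0.23 without KP 8 and 0.05 with all 8 tumours. Its 1 call was Itgax, the integrin αX (CD11c) gene, which was counted at 9.88, 12.4, 10.8 and 15.1 CPM in KP 5 to KP 8 and at 26.7, 31.0 and 27.8 CPM in KPH2 2 to KPH2 4 (log2 fold change 1.24, SE 0.19, edgeR adjusted p = 0.0239). KPH2 1, at 10.8 CPM, lay inside the KP range, and the value for all 8 tumours was 0.995 (edgeR adjusted p = 0.220). Among single tumours left out, the call held without KP 5 or KP 8 and was lost without any other (edgeR adjusted p = 0.0570 to 0.0753). Itgax is also carried by dendritic cells, of whose 6 tested marker genes edgeR called 0, with 0 at an unadjusted p under 0.05. Their median ran from −0.35 to 0.02 when single tumours were left out.

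Complement genes beyond C1q were lower throughout, with 14 of 14 below 0, a median of −0.78 and 3 called. C1s and C1ra encode the proteases that join C1q in the C1 complex. C1s was counted at 112, 167, 105 and 60.8 CPM in KP 5 to KP 8 and at 15.4, 30.7 and 17.8 CPM in KPH2 2 to KPH2 4 (log2 fold change −2.39, SE 0.39, edgeR adjusted p = 0.0303). C1ra fell from 25.2 ± 5.64 CPM (SD, n = 4) to 9.19 ± 1.72 CPM (SD, n = 3), a log2 fold change of −1.45 (SE 0.25, edgeR adjusted p = 0.0307). In KPH2 1 C1s stood at 65.8 CPM, inside the KP range, and C1ra at 16.1 CPM, below it, and over all 8 tumours neither passed (edgeR adjusted p = 0.184 and 0.139). C1s also missed the threshold without KP 6, KP 7, KPH2 2 or KPH2 4 (edgeR adjusted p = 0.0513 to 0.110), and C1ra without those or KPH2 3 (0.0660 to 0.107). C4b, named after its value was seen, had a log2 fold change of −1.36 (edgeR adjusted p = 0.0355). It did not pass over all 8 tumours (edgeR adjusted p = 0.0885), and 0 genes of this list passed without KP 6, KP 7 or KPH2 2. C1ra, C1s and C4b have near-identical copies in the mouse genome. Only uniquely placed reads were counted, so reads that fit more than 1 copy may be missing from their counts. Fibroblasts make these proteins as well.

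Of the colony-stimulating factors and receptors beyond the CSF1 axis and Il34, Csf2rb, the shared receptor chain for GM-CSF and related cytokines, differed by −0.62 (edgeR adjusted p = 0.273). The whole list includes Il34, its only higher gene, and the other 4 of its 5 tested genes were lower. It held no call by edgeR, with 2 at an unadjusted p under 0.05 (0 without KP 6, KP 8 or KPH2 3, and 1 without KP 7 or KPH2 2). All 5 monocyte genes were lower, with a median of −1.48 and no call by edgeR, 1 of them at an unadjusted p under 0.05. That count was 4 with all 8 tumours, 3 without KP 5 or KP 7, 2 without KPH2 2 and 0 without KP 8 or KPH2 4, and the median was −0.99 without KP 8. The chemokine receptor gene Ccr2 stood at 74.9 to 312 CPM in KP and 43.8 to 112 CPM in KPH2 2 to KPH2 4 (log2 fold change −1.19, edgeR adjusted p = 0.303, and −0.68 without KP 8). Plac8 differed by −1.55 (edgeR adjusted p = 0.338), with a KP range of 9.20 to 69.1 CPM, and by −0.69 without KP 7.

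**Figure D5:**
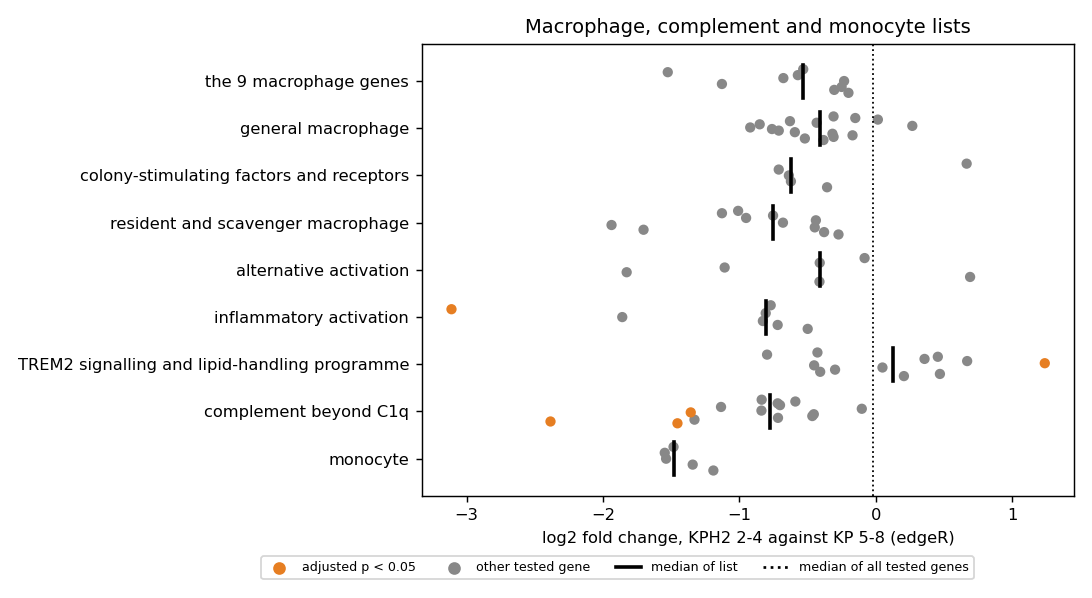
Log2 fold change in KPH2 2 to KPH2 4 against KP 5 to KP 8 (horizontal axis) of each tested gene of the 9 macrophage genes and of the 8 lists, with orange points for an adjusted p under 0.05, black bars for list medians and a dotted line for the median of all tested genes. Medians lie between −1.48 and −0.41 except that of the TREM2 and lipid-handling list at 0.13, and 5 points are orange.

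Marker lists of other cells were read in the same way, and with all 8 tumours edgeR called 0 of their genes. The summed level of 20 skeletal muscle genes was 1786 to 3259 CPM in KP and 4207 to 18992 CPM in KPH2 2 to KPH2 4, with all 20 higher and 2 called by edgeR (10 without KPH2 4 and 1 without any other single tumour). KPH2 1 had less muscle RNA, at 1471 CPM, than any KP tumour. KPH2 1 was below every KP tumour for 8 of the 9 macrophage genes. It is 1 tumour, taken to be the study's technical outlier, and a link between these values was not tested. With the muscle score as a covariate the log2 fold changes over the 7 tumours were −0.55 for Mrc1 (SE 0.55) and −0.27 for Cd163 (SE 0.69). They were −0.25 for Csf1 (SE 0.39), −0.10 for Csf1r (SE 0.35), −0.07 for C1qa, −0.12 for C1qb, −0.24 for C1qc and −0.74 for Trem2. The sign turned for Cd68 (0.067), and adjusted p from edgeR lay between 0.777 and 0.979 for the 9 genes. The score was 4.10 to 5.28 in KP tumours and 5.49 to 7.84 in KPH2 2 to KPH2 4, without overlap. This fit therefore cannot tell muscle content and genotype apart.

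All 4 genes of lymphatic endothelium, a cell type that also carries MRC1 and LYVE1, were higher, with summed levels of 19.5 to 24.1 CPM in KP, 41.2 to 129 CPM in KPH2 2 to KPH2 4 and 11.8 CPM in KPH2 1. Their log2 fold changes had a median of 3.71 and no call by edgeR, with all 4 at an unadjusted p under 0.05 and 1 called without KP 5. The log2 fold changes of Mrc1 and Lyve1 were −1.53 and −1.94, that of Lyve1 without a call (SE 0.72, edgeR adjusted p = 0.213). Lyve1 stood at 18.4, 61.5, 159 and 30.6 CPM in KP 5 to KP 8. It stood at 14.0, 12.8 and 25.7 CPM in KPH2 2 to KPH2 4 and at 19.3 CPM in KPH2 1, so the groups overlapped. All 6 tested mast cell genes were lower, with a median of −2.71, no call by edgeR and all 6 at an unadjusted p under 0.05 (2 without KPH2 2 and 3 without KPH2 3). Their list summed to 447 CPM in KP 5 but to 74.7 to 77.7 CPM in KP 6 to KP 8, to 22.3 to 53.9 CPM in KPH2 2 to KPH2 4 and to 135 CPM in KPH2 1. Without KP 5 the median was −1.18, with 1 call, and with all 8 tumours it was −1.55, with 1 of 6 at an unadjusted p under 0.05. The endothelial list summed to 288 to 566 CPM in KP and 302 to 305 CPM in KPH2 2 to KPH2 4, with 7 of 8 genes lower and 0 called by edgeR (1 without KP 5), 3 of them at an unadjusted p under 0.05 (7 without KP 5). With all 8 tumours 8 of the 8 endothelial genes were lower, 6 of them at an unadjusted p under 0.05. The stromal list summed to 13112 to 21842 CPM and 7782 to 15920 CPM, with 7 of 8 lower and 1 called (2 without KP 5 and 0 without KPH2 2). KPH2 1 lay below every KP tumour for both lists, at 214 and 9044 CPM. Genes of osteoclasts, which also depend on CSF1R, had a median of −0.32, with 4 of 6 lower and 0 called by edgeR, 1 of them at an unadjusted p under 0.05. Their list summed to 218 to 688 CPM in KP, 116 to 239 CPM in KPH2 2 to KPH2 4 and 604 CPM in KPH2 1, and with KPH2 1 the median turned to 0.28, with 4 of 7 genes higher. It was 0.25 without KP 7, −0.02 without KPH2 2 and −0.67 without KP 8. Neutrophil, T cell, B cell, adipocyte and keratinocyte lists were low, each at 32.1 CPM or less in sum in every tumour, and edgeR called none of their 13 tested genes, with 1 (Fabp4, called without KP 5) at an unadjusted p under 0.05. Without KPH2 3 that count was 3 of 14, all from the T cell list, whose median was then −1.17 against −0.64 over the 7 tumours. The T cell median was −0.29 without KPH2 2, −0.28 without KPH2 4, −0.39 without KP 8 and −0.87 with all 8 tumours. The part of these other cells in the levels of the macrophage genes was not tested beyond the fit with the muscle score.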

How the data were processed

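RNA-seq counts for 8 tumours were used. The authors deposited raw counts per gene, without normalization: STAR 2.4 placed the reads on GRCm38, and htseq-count 0.6.1 assigned the uniquely placed ones to RefSeq transcripts. Also deposited were log2 values, by the regularized log transformation (rlog) of DESeq2 1.6, of which the table over 7 tumours was used. The strand setting of the counting is not given in the sources used here. Long non-coding or microRNA genes of RefSeq overlap Csf1, Csf1r, Mrc1 and Cd163.

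Counts were compared between KPH2 2 to KPH2 4 and KP 5 to KP 8 in R 4.3.3 with edgeR 4.0.16 (TMM, minimum count 10, minimum total count 15, robust quasi-likelihood test, no covariates). The same code was run on simulated counts without differences in tissue make-up, which does not show how it performs on these tumours. P was adjusted by Benjamini-Hochberg across the 14867 tested genes and called under 0.05, 2-sided. CPM use TMM library sizes over all 8 tumours, and log2 CPM a prior count of 2. The labels do not say that each tumour came from its own mouse, so p-values measure the spread between these tumours. Alternatives were all 8 tumours, each of 7 tumours left out, other scalings and filters, DESeq2 1.42.0, the muscle score (mean log2 CPM of the 20 skeletal muscle genes) as covariate, and limma 3.58.1 on rlog values.

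The 9 genes and the gene lists were chosen with earlier results of these data known. Beside the 9 genes and Epas1, the text names from each list the 2 called genes of lowest p per direction, or otherwise the 2 most abundant, and the 5 genes most like Csf1r and C1q. Other genes were named after their values were seen. Emr1, Sfpi1 and Chi3l3 were matched as older symbols. Another gene of the set and an allele that both genotypes carried are not reported here. Sequences are from RefSeq on GRCm38.p6.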

Additional observations from a re-analysis of the deposited data

Results flagged for a closer look

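Among the 10 genes whose levels were examined in both groups of 4 tumours (the 9 macrophage genes and Epas1), 1 of 20 sets held a tumour far from the rest by Dixon's criterion, which chance gives about once in 20 sets. Epas1 stood at 59.2 CPM in KP 5, apart from the other KP tumours at 83.2 to 86.9 CPM, with a gap of 0.867 of the whole range. KP 5 was also the lowest KP tumour for Csf1, Csf1r, Mrc1, Cd163, C1qb and C1qc.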

How the results depend on the processing

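Over 16 alternatives for each of the 9 macrophage genes, 141 of 144 log2 fold changes kept their direction and their side of the threshold, which only Mrc1 passed in any fit. Their size was less steady. The median of the 9 genes was −0.53 in the main fit, −0.24 with the muscle score and −0.32 without KPH2 2 or with the rlog values. With the muscle score as covariate the value of Cd68 turned to 0.067, and those of Csf2rb and Tgm2 to 0.0083 and 0.46. In that fit F13a1 went from −1.70 to −0.75 and Stab1 from −0.75 to −0.12, whereas Ccr2 went from −1.19 to −1.97. Tgm2 ran from −0.25 to 0.15 when single tumours were left out, above 0 without KPH2 3. Mrc1 passed without KP 5 and with DESeq2, so that the number of the 9 genes past the threshold was 1 in either fit and ran from 0 to 1 when single tumours were left out. All 9 were lower in every such fit. The 5 called genes of the lists became 0 with all 8 tumours, 10 with DESeq2 and 0 with the muscle score, and 0 to 10 when single tumours were left out. Over all genes the 292 calls became 1 with all 8 tumours, 1166 with DESeq2 and 3 with the muscle score. They became 349 without KP 5, 130 without KP 6, 73 without KP 7, 130 without KP 8, 55 without KPH2 2, 159 without KPH2 3 and 153 without KPH2 4. Fits without a tumour or with a covariate have fewer degrees of freedom; otherwise the cause was not tested. Of the 5 genes nearest to Csf1r, 1 stayed when group means were subtracted, and of the 5 nearest to C1q, 3 stayed with all 8 tumours and 1 with group means subtracted. Scaling by DESeq2 size factors or upper quartiles, the filters and the rlog values changed no call among the 9 genes, but both filter choices ended the call of Ptgs2. No paired analysis was possible because the groups share no replicate numbers.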
